A study of Mus musculus with 20 samples.

Results

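RNA from cultures of mouse cerebellar granule neurons, which are small glutamatergic cells of the cerebellum, was compared between 2 forms of a rescue of Kdm6b. Both rescue groups carried an shRNA against mouse Kdm6b. The active rescue also received a human KDM6B enzymatic domain, labelled Cat, and the dead rescue received an enzymatically dead version of that domain, labelled dCat. The comparison used all 10 rescue libraries of the 20 in the series, chosen by their labels, with 5 libraries in each group numbered 1 to 5. The other 10 libraries were 5 from control cultures and 5 from cultures with the shRNA alone (shKdm6b). Infection took place on day 1 of culture. AraC, which kills dividing cells, was added on day 2, and RNA was taken on day 7. The labels give no strain, age or sex, do not say what the control cultures were infected with, and do not say whether a number marks an animal, a litter or a culture. If libraries are not separate cultures, p-values measure only the spread between these samples. The study asked whether the enzymatic activity of the domain is enough to restore expression of synaptic genes.

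KDM6B, also called JMJD3, is a JmjC-domain dioxygenase that removes di- and trimethyl marks from lysine 27 of histone H3. The trimethyl mark is laid down by the Polycomb complex PRC2, whose catalytic subunits are EZH1 and EZH2, and is associated with gene silencing. The Ink4 locus, which encodes the cell cycle inhibitors of Cdkn2a and Cdkn2b, and the Hox clusters are textbook Polycomb targets. KDM6B is known to be induced in stimulated macrophages and has been studied in the maturation of neurons. A catalytically dead domain is the usual control for functions of the protein that do not need demethylation.

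Of 24411 genes in the table, 15284 passed the filter on low counts and 9127 did not. The libraries held between 14200745 and 21179300 estimated counts. The fit compared active with dead rescue within numbers, and libraries with the same number deviated together from their group means (r from 0.591 to 0.793 across genes for the 5 pairs). The numbers also differed in RNA composition. Reads of the ribosomal RNA precursor Rn45s took 2.43 to 7.24% of the counts in the libraries numbered 1 to 3 and 0.206 to 0.611% in those numbered 4 and 5. For this reason values within numbers 1 to 3 and within 4 and 5 are given for genes whose call they change. Such genes were picked by that change, so their adjusted p-values in these fits are no independent evidence. The fit of numbers 4 and 5 rests on 2 pairs, so not passing there says little. Granule neuron markers were present in every rescue library, with a summed level of 14 markers between 2863 and 7720 CPM (counts scaled to library size) in the active and between 3293 and 6883 CPM in the dead rescue.

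Kdm6b itself was somewhat higher with the active domain in each pair, a difference that the tests at this number of pairs did not pass. In the active rescue Kdm6b stood at 290, 312, 266, 73.2 and 119 CPM in numbers 1 to 5. In the dead rescue it stood at 272, 250, 192, 54.9 and 109 CPM. Each active library was the higher of its pair, but the groups overlapped, and numbers 4 and 5 were low in both. The mean pair difference was 0.28 ± 0.17 on the log2 scale (SD, n = 5), with an exact two-sided sign-flip p of 0.0625, the smallest that 5 pairs allow, and an exact two-sided permutation p of 0.611 without pairing. In edgeR's quasi-likelihood fit the difference was 0.29 ± 0.21 (log2 fold change ± SE, adjusted p = 1.00). Control stood at 141, 171, 139, 81.2 and 187 CPM and shKdm6b at 99.4, 112, 89.3, 37.9 and 76.4 CPM. Both rescues were above shKdm6b in every number, above control in numbers 1 to 3 and below control in numbers 4 and 5. The table holds 1 entry for Kdm6b and does not separate reads of the human domain from those of the mouse gene at chr11:69398508-69413675 (mm10), so these values do not measure the knockdown or either domain alone, and the share of human reads was not tested. The related demethylase genes Kdm6a (0.09 ± 0.23) and Uty (-0.05 ± 0.22) had small estimates with adjusted p-values of 1.00.

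Few genes passed the test between the active and the dead domain. At an adjusted p under 0.05 edgeR called 1 gene of 15284 (0.00654%), the channel subunit gene Kcnip1, which was higher with the active domain. DESeq2 on the same design called 3 genes (0.0196%): Kcnip1, the hypoxia-inducible transcription factor gene Epas1, higher, and the antiviral synthetase gene Oas2, lower. At an unadjusted p under 0.05 edgeR listed 239 genes higher (1.56%) and 176 lower (1.15%), 415 in all (2.72%). Without the replicate block it called 0 genes, with 37 at an unadjusted p under 0.05. In all 5 pairs 534 genes were higher (3.49%) and 306 were lower (2.00%). For scale, the same fit called 632 genes (4.14%) between shKdm6b and control. The median difference over all genes was 0.01 on the log2 scale. The precision was such that the median half-width of a gene's 95% interval was 0.30 on the log2 scale, and for 13481 genes (88.2%) the interval lay within a 2-fold change in either direction. Among the 12068 genes of at least 5 CPM, 97.7% had such an interval.

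**Figure D1:**
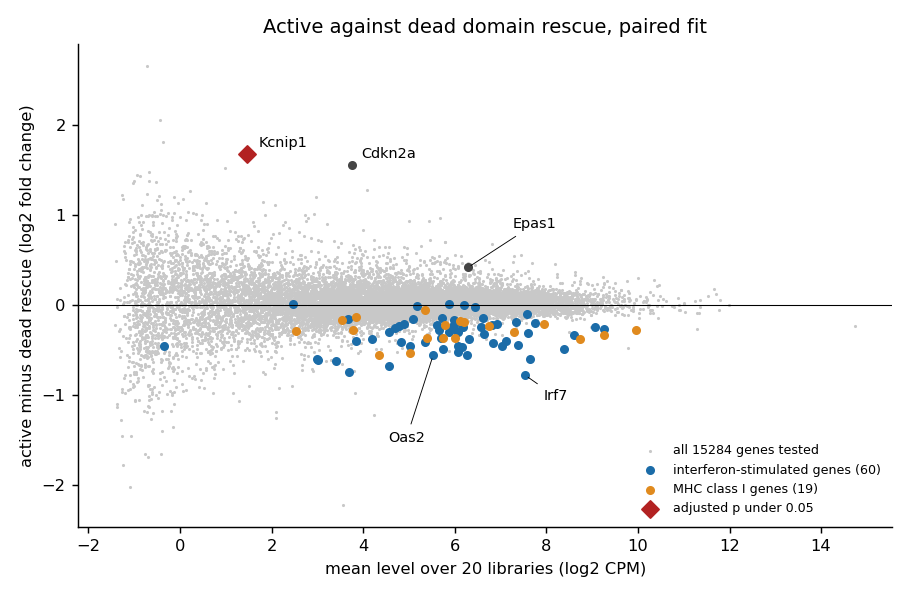
Difference between active and dead rescue (log2 fold change, vertical axis) against mean level over all 20 libraries (log2 CPM, horizontal axis), 1 point per gene tested. Kcnip1 is the gene with an adjusted p under 0.05, and 57 of the 60 interferon-stimulated genes lie below 0.

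Kcnip1 encodes KChIP1, a calcium-binding subunit that associates with Kv4 potassium channels. It was low in the cultures without a domain, between 0.23 and 1.73 CPM in control and between 0.24 and 2.07 CPM in shKdm6b. In the active rescue it reached 12.9, 8.42, 4.39, 4.10 and 0.58 CPM in numbers 1 to 5, from 264, 170, 82, 84 and 10 counts. In the dead rescue it reached 2.52, 2.77, 1.41, 1.46 and 0.40 CPM, from 51, 59, 24, 23 and 6 counts. The active library was 1.45 to 5.11 times as high as its dead partner, the smallest ratio being in number 5, where counts were lowest. The fitted difference was 1.67 ± 0.24 on the log2 scale (edgeR, adjusted p = 0.0411, higher in 5 of 5 pairs).

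In edgeR the call for Kcnip1 was close to the threshold, while DESeq2 on the same design gave an adjusted p of 6.64e-06. Within numbers 1 to 3 the difference was 1.87 (edgeR adjusted p = 0.0232) and within numbers 4 and 5 it was 1.13 (adjusted p = 1.00). Without the replicate block the adjusted p was 1.00, and in a fit of the 10 rescue libraries alone it was 0.188. Of the 10 fits that each left out 1 rescue library, 2 kept it, those without active rescue 4 (adjusted p = 0.0434) or 5 (0.0240), and leaving out active rescue 1, 2 or 3 or any dead rescue library raised the adjusted p to between 0.052 and 0.519, while the log2 difference stayed between 1.41 and 1.77. The gene spans chr11:33629339-33993152 on the minus strand (mm10) and overlaps Kcnmb1 on the other strand, for which the difference was 0.10 ± 0.45, and whether the counting used strand is not given in the sources used here.

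Among other channel genes, the other 46 tested of the list of 48 potassium, sodium and calcium channel genes were not called. With Kcnip1 included, 34 of 47 had positive estimates, 4 (8.51%) were higher and 0 lower at an unadjusted p under 0.05, beside 1.56% and 1.15% of all genes, and the median was 0.07. Cacna2d2, an auxiliary calcium channel subunit, was at 66.2, 54.5, 46.5, 20.9 and 35.8 CPM with the active domain and 42.4, 39.5, 25.4, 13.7 and 32.0 CPM with the dead one. Each active library was the higher of its pair (0.57 ± 0.16, edgeR unadjusted p = 0.00224, adjusted p = 0.993), and the groups overlapped. Within numbers 1 to 3 the Cacna2d2 difference was 0.65 (adjusted p = 0.0445) and within numbers 4 and 5 it was 0.40 (adjusted p = 1.00). The T-type calcium channel gene Cacna1g had an estimate of 0.33 ± 0.10 (edgeR unadjusted p = 0.00410).

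Since 1 gene was called, the genes with the smallest unadjusted p among those of at least 5 CPM that differed the same way in all 5 pairs are given as values, none of them called by edgeR. Epas1, which encodes HIF-2alpha, came first. It was at 79.6, 80.2, 138, 69.6 and 96.1 CPM in the active rescue and at 51.6, 65.6, 113, 45.3 and 82.8 CPM in the dead rescue. The dead rescue lay near control (49.1, 67.6, 106, 45.6 and 83.4 CPM), and each active library was the highest of its pair. The difference was 0.41 ± 0.08 (edgeR unadjusted p = 8.75e-05, adjusted p = 0.669; DESeq2 adjusted p = 0.0158). The G-protein regulator gene Rgs8, at 110 ± 37.6 against 84.4 ± 27.1 CPM (mean ± SD, n = 5), had an estimate of 0.37 ± 0.09. Rasgrp1, a guanine nucleotide exchange factor for Ras, had 12.4 ± 6.95 against 6.66 ± 3.73 CPM and an estimate of 0.90 ± 0.23. The remaining genes on the higher side were Sowaha (0.71), Syt13 (0.40), Kndc1 (0.37), Cx3cl1 (0.26), a neuronal chemokine, the collagen gene Col8a1 (0.37), the platelet-derived growth factor receptor gene Pdgfrb (0.29), Ace (0.34), which encodes angiotensin-converting enzyme, and Igfbp5 (0.47).

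Pdgfrb is on the list of fibroblast markers, and markers of non-neuronal cells were summed in each library. Over 11 fibroblast and meningeal markers the summed level ranged from 5137 to 31358 CPM in the active and from 5641 to 27061 CPM in the dead rescue, with 9 positive estimates and a median of 0.10. By pair their median was 0.13, -0.23, -0.14, 0.47 and 0.17. Over 6 endothelial markers it ranged from 56.5 to 180 CPM and from 64.1 to 159 CPM, with 3 positive and 3 negative estimates and a median of 0.15. By pair this median was -0.17, -0.14, -0.23, 0.87 and 0.15. In each of pairs 1 to 3, 4 of 6 endothelial markers were lower, while pairs 4 and 5 went the other way, pair 4 most. The part of these cells in the differences above was not tested. In bulk RNA fewer cells of a type and less RNA per cell cannot be told apart.

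Cdkn2a encodes the cell cycle inhibitor p16-INK4A and, from another reading frame, p19-ARF. It had the largest estimate of the 12 genes named on the higher side. It was at 17.2, 25.4, 52.7, 10.5 and 11.7 CPM in the active rescue. In the dead rescue it was at 5.44, 6.34, 13.4, 8.73 and 6.84 CPM. The active library exceeded its dead partner by 1.20 to 4.01 times, and numbers 1 to 3 held the large ratios. In number 4 the active library was below control (27 CPM) and shKdm6b (20.8 CPM). The difference was 1.55 ± 0.41 (edgeR unadjusted p = 0.00158, adjusted p = 0.993). Within numbers 1 to 3 alone it was 1.88 with an adjusted p of 0.00515, and within numbers 4 and 5 it was 0.56 with an adjusted p of 1.00.

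Its neighbour Cdkn2b, which encodes p15-INK4B, was at 23.7, 25.2, 31.5, 31.5 and 21.4 CPM against 16.2, 18.7, 25.2, 24.1 and 17.8 CPM. Each active library was the higher of its pair, and the groups overlapped (0.39 ± 0.11, edgeR unadjusted p = 0.00223, adjusted p = 0.993). Both genes lie on mouse chromosome 4 (mm10), Cdkn2a at chr4:89274471-89294653 and Cdkn2b at chr4:89306299-89311039, both on the minus strand.

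Both belong to a list of 56 Hox and other regulators, labelled Polycomb-silenced, of which 21 passed the filter. The label does not describe their state in these cultures. Of the 21, 16 had positive and 5 negative estimates, with a median of 0.26. In all pairs 5 (23.8%) were higher, beside 3.49% of all genes. A gene could pass the filter through the libraries where it is high, so these counts are no independent evidence. By pair the median was 0.49, 0.03, 0.32, 0.28 and 0.27, and 7, 10, 6, 6 and 4 of the 21 were lower. The median half-width of their 95% intervals was 0.69. None was called by edgeR or DESeq2. Cdkn2a and Cdkn2b were the 2 (9.52%) with an unadjusted p under 0.05, beside 1.56% of all genes that were higher. For 10 of the 21 the 95% interval lay within a 2-fold change.

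Genes of the H3K27 machinery itself had small estimates. Of 24 writers, erasers and Polycomb subunits, 16 had positive estimates, the median was 0.04 and 0 were called, with 1 at an unadjusted p under 0.05 and none by DESeq2. That gene was Cbx2, a reader subunit of PRC1, at 12.6, 13.9, 14, 12.8 and 12.2 CPM against 9.99, 11.4, 10.9, 10.5 and 11.1 CPM. All 5 active libraries were above all 5 dead ones (0.28 ± 0.11, edgeR unadjusted p = 0.0202, adjusted p = 1.00). The H3K27 methyltransferase gene Ezh2 had an estimate of -0.21 ± 0.13.

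**Figure D2:**
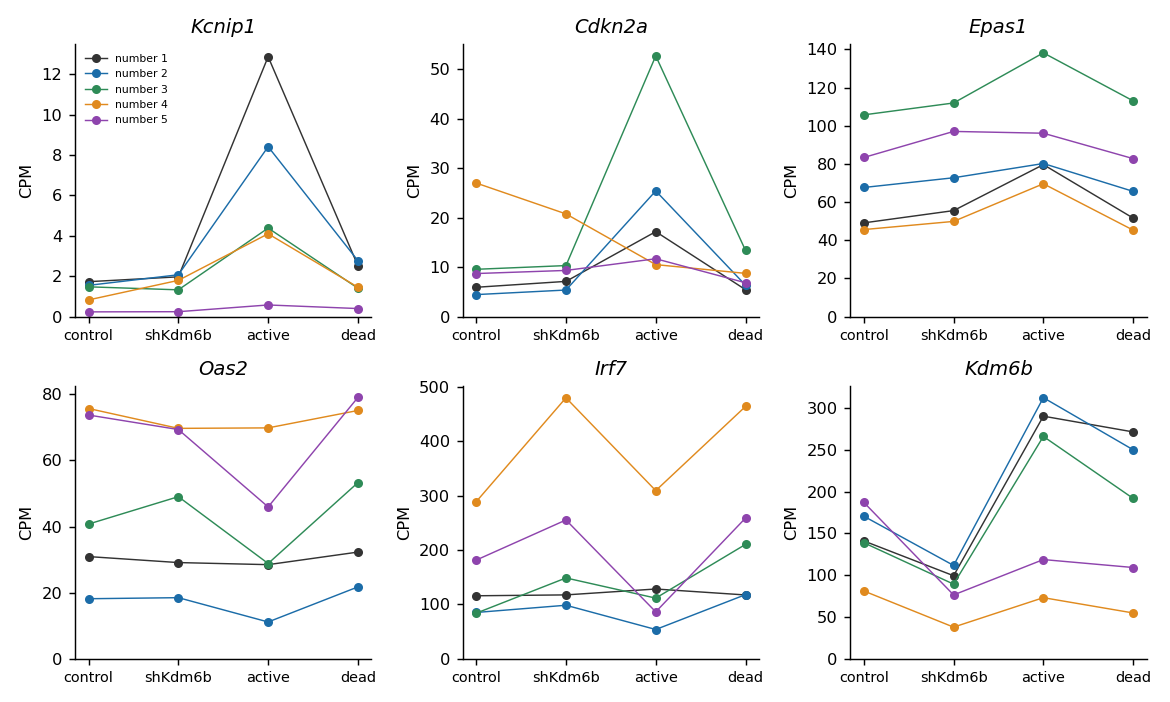
CPM of 6 genes (vertical axes start at 0) in the 4 groups, with lines joining libraries of the same number. Kcnip1 peaks in the active rescue in each number, Cdkn2a in numbers 1, 2, 3 and 5, and Oas2 is lower in the active than in the dead rescue in each number.

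On the lower side the leading genes included members of the interferon response. Type I interferons act through transcription factors that bind a promoter element with repeated GAAA units and switch on antiviral genes. Of the 12 genes with the smallest unadjusted p that were lower in all 5 pairs, Oas2, Phf11d, Isg20 and Mx2 were on a list of 60 interferon-stimulated genes and H2-T22 on a list of MHC class I genes. Tgtp1 (-0.51), Uba7 (-0.49), Ifi47 (-0.33) and Nmi (-0.51) were on neither list and are known as interferon-induced, an assignment made after their values were seen. The other 3 were Siah1b (-0.43), Cenpi (-0.73) and Mycbp (-0.36).

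The promoter elements of 7 of the genes are shown because they lie in interferon or MHC class I genes that led the lower side. The motif GAAANNGAAA was searched on both strands in RefSeq windows of GRCm38.p6 from 250 bases before to 50 after a gene's start, each of 300 bases. Overlapping matches were counted. Each 30-base stretch is written in the gene's direction, and capitals mark the match, including overlapping matches.
Isg15, chr4:156200871-156200900, minus strand: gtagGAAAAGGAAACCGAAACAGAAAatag
Oas1a, chr5:120907523-120907552, minus strand: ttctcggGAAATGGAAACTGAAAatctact
Oas1g, chr5:120887609-120887638, minus strand: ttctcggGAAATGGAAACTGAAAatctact
Gbp3, chr3:142559992-142560021, plus strand: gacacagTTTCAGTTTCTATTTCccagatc
Ifit3b, chr19:34607759-34607788, plus strand: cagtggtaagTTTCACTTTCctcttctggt
Tgtp1, chr11:48992304-48992333, minus strand: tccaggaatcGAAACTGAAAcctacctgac
H2-T22, chr17:36042914-36042943, minus strand: attggcttagTTTCACTTTCgaatccccaa

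The whole window of Isg15, whose 3 overlapping matches begin 78 bases before the start, reads as follows.
Isg15, chr4:156200769-156201068, minus strand: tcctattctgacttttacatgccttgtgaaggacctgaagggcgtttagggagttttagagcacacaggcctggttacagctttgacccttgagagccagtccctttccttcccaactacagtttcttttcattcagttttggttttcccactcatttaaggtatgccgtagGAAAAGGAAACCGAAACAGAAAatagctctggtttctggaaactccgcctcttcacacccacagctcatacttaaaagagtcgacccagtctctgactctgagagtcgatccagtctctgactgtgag

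Of the 60 interferon-stimulated genes 46 had a window, and 24 of those (52.2%) held the motif. Among the MHC class I genes 5 of 15 held it (33.3%). Among all tested genes with a window 431 of 11484 held it (3.75%), and among all RefSeq windows 1131 of 32851 (3.44%). Among cytosolic ribosomal protein genes with a window 6 of 35 held it (17.1%). The shares were 1 of 31 cell cycle genes (3.23%) and 2 of 34 glutamate receptor and postsynaptic scaffold genes (5.88%). The windows of Irf7, Phf11d, Epsti1, Uba7, Ifi47, Nmi, Isg20 and Psmb9 held no match of these letters, nor did those of Kcnip1 and Cdkn2a. Oas2 and Mx2 had no window, so their promoters were not searched.

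Of the 60 interferon-stimulated genes, all of which passed the filter, 57 had lower and 3 higher estimates with the active domain, and the median was -0.31 against 0.01 over all genes. At an unadjusted p under 0.05, 32 (53.3%) were lower and 0 higher, beside 1.15% lower over all genes. Lower in all 5 pairs were 8 members (13.3%), beside 2.00% of all genes. None was called by edgeR, and DESeq2 called Oas2. This list had been seen to differ in an earlier look at the same libraries, so its direction is no independent evidence.

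Oas2, an antiviral enzyme that makes 2-5A, was at 28.5, 11.1, 28.8, 69.8 and 45.9 CPM in the active rescue and at 32.3, 21.7, 53.3, 75.1 and 79.1 CPM in the dead rescue. Each active library was the lower of its pair, by little in numbers 1 and 4, and the groups overlapped (-0.56 ± 0.12, edgeR unadjusted p = 0.000201, adjusted p = 0.993; DESeq2 adjusted p = 0.0342). Phf11d was at 9.41, 5.30, 10.3, 12.2 and 9.90 CPM against 12.3, 9.06, 25.6, 16.4 and 18.5 CPM, with a difference of -0.75 ± 0.18. Irf7, the transcription factor that amplifies interferon production, was at 128, 53.9, 112, 309 and 86.3 CPM against 117, 118, 210, 464 and 259 CPM. It was lower in numbers 2 to 5 and slightly higher in number 1 (-0.78 ± 0.20, edgeR unadjusted p = 0.00126, adjusted p = 0.993).

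Isg15, a ubiquitin-like modifier, was likewise lower in numbers 2 to 5 and slightly higher in number 1, at 113, 62.7, 205, 267 and 101 CPM against 105, 128, 305, 431 and 181 CPM (-0.60 ± 0.17). Further members were lower in 4 of 5 pairs: the 2-5A synthetase genes Oas1g (-0.68) and Oas1a (-0.53), Epsti1 (-0.60), the guanylate-binding protein gene Gbp3 (-0.56) and Ifit3b (-0.46). The exonuclease gene Isg20 (-0.62) and the dynamin-like GTPase gene Mx2 (-0.46) were lower in all 5. Oas1a and Oas1g, Ifit3 and Ifit3b, and Tgtp1 (-0.51) and Tgtp2 (-0.19) are near-identical copies among which the counting could split reads, and the printed sites of Oas1a and Oas1g are identical. Irf7 overlaps Phrf1 on the other strand.

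The size of the difference varied with the number. The median over the 60 genes was 0.01 in pair 1, -0.42 in pair 2, -0.64 in pair 3, -0.10 in pair 4 and -0.52 in pair 5, and 30, 58, 59, 37 and 54 genes were lower. Pair 1 thus had as many genes lower as higher, and pairs 2, 3 and 5 carried the difference. The median was -0.37 in a fit of numbers 1 to 3 and -0.32 in a fit of numbers 4 and 5. Leaving out 1 rescue library moved it between -0.46 and -0.26.

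**Figure D3:**
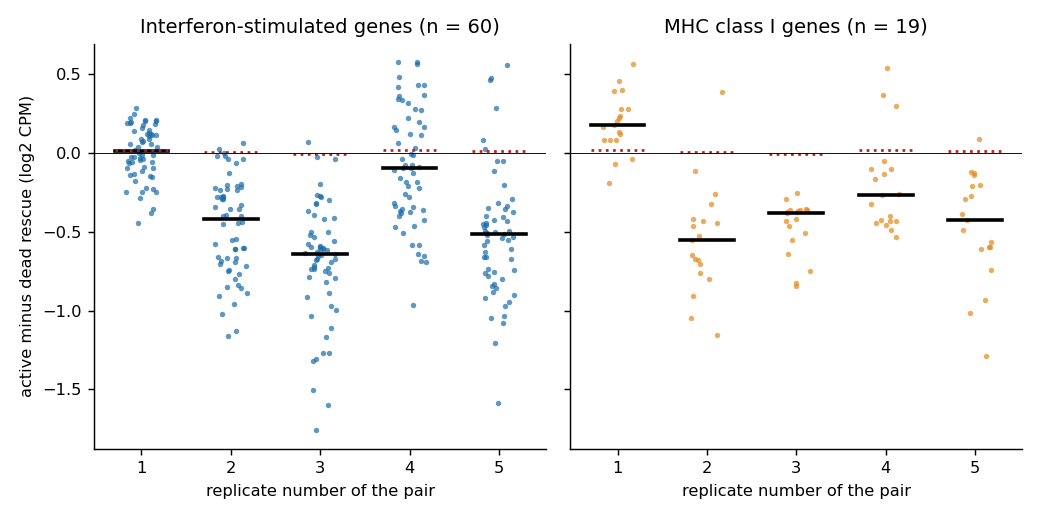
Active minus dead rescue (log2 CPM, vertical axis) for each gene of 2 lists in each pair of same-numbered libraries (horizontal axis). Black bars mark the list's median and red dotted bars the median of all genes. The interferon list is centred near 0 in pair 1 and at -0.42, -0.64 and -0.52 in pairs 2, 3 and 5.

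Set against the control library of the same number, the mean log2 level of the 60 genes was higher in the dead rescue in all 5 numbers (0.35 ± 0.22, SD, n = 5) and in shKdm6b in all 5 (0.35 ± 0.18). In the active rescue it was higher in 2 of 5 numbers (0.00 ± 0.31). Both rescues were compared with the same control libraries, so these values are not independent. The active library was the lower of its pair in 5 of 5 numbers, by 0.35 ± 0.30, with number 1 at -0.00027. Between shKdm6b and control edgeR called 7 of the 60 members higher, beside 263 of all 15284 genes, and 0 of the MHC class I genes. Of the 7 interferon-stimulated genes 6 had an unadjusted p under 0.05 between the rescues and were lower with the active domain: Ifit1, Ifit3, Ifit3b, Oas1b, Rtp4 and Usp18.

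**Figure D4:**
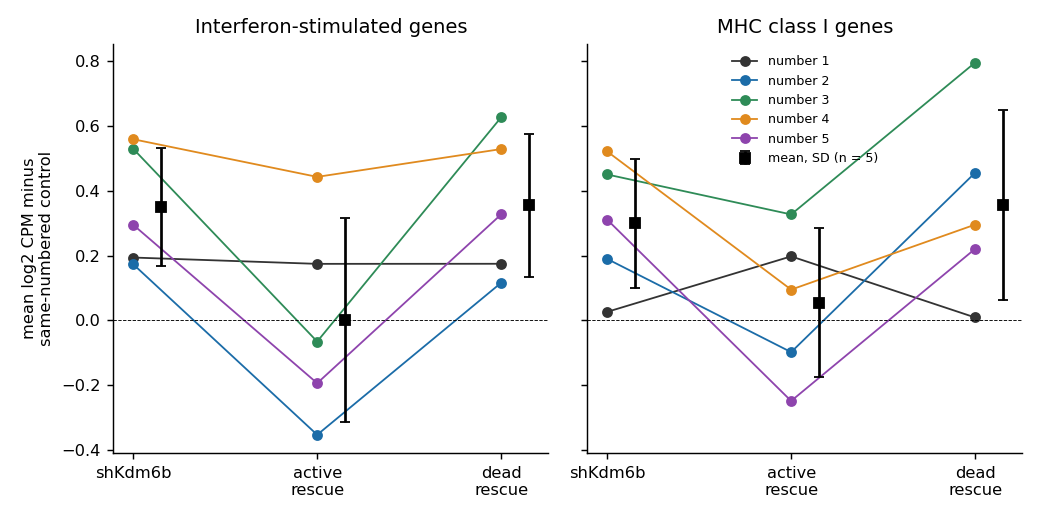
Mean log2 CPM of the listed genes minus that of the same-numbered control library (vertical axis) in shKdm6b and both rescues. Coloured lines join libraries of a number, and black squares are means with SD over 5 numbers. For the interferon list the means are 0.35, 0.00 and 0.35.

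Genes of MHC class I presentation had the same sign. They encode the peptide-presenting molecules, the peptide transporter and the immunoproteasome, and are induced by interferons. Of 20 listed, 19 passed the filter, and all 19 had lower estimates with the active domain (median -0.29, range -0.56 to -0.06). At an unadjusted p under 0.05, 9 (47.4%) were lower and 0 higher, and 3 (15.8%) were lower in all pairs, beside 1.15% and 2.00% of all genes. None was called by edgeR or DESeq2. H2-T22, a nonclassical class I gene, was at 15.3, 8.67, 20.8, 77.1 and 24.6 CPM against 16, 18, 27, 96.4 and 49.9 CPM. It was lower in each pair, with overlapping groups (-0.54 ± 0.17). The immunoproteasome gene Psmb9, which overlaps Tap1, had an estimate of -0.56 ± 0.20, and H2-T23 one of -0.37 ± 0.14. Reads of the H2-T and other class I genes can be shared among copies. The abundant B2m, the light chain of class I molecules, had 940 ± 331 against 1124 ± 322 CPM and an estimate of -0.29 ± 0.13. By number the list's median was 0.18, -0.55, -0.38, -0.27 and -0.43, so number 1 went the other way.

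The upstream sensors and signalling genes had estimates of either sign. Of 24 nucleic acid sensing and interferon signalling genes, 9 had positive and 15 negative estimates, with a median of -0.02 and 0 called by either tool or at an unadjusted p under 0.05. Among 27 inflammatory and NF-kB genes 20 had positive estimates (median 0.08). The chemokine gene Ccl5, which interferon also induces, was lower in 4 of 5 pairs (-0.93 ± 0.29, edgeR unadjusted p = 0.00496, adjusted p = 1.00) at 2.85 ± 1.42 against 5.01 ± 1.80 CPM. Summed levels of 16 microglia and macrophage markers ranged from 359 to 1436 CPM in the active and from 464 to 1343 CPM in the dead rescue, with a median estimate of -0.07, 7 positive and 9 negative, and no marker at 0 in all libraries. For 14 astrocyte and Bergmann glia markers the ranges were 2809 to 12921 and 2618 to 13447 CPM and the median estimate -0.05. In pair 3, where the interferon difference was largest, 15 of 16 microglia markers (median -0.38) and 13 of 14 astrocyte markers (median -0.43) were lower. In pair 5 the markers had medians of 0.09 and 0.07. Their part in the interferon difference was not tested.

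The question of the study concerned synaptic genes, and none of them passed the test between the 2 domains. In a joint list of 121 presynaptic, glutamatergic and GABAergic or glycinergic genes, 87 had positive estimates and the median was 0.05 beside 0.01 over all genes. None was called by edgeR or DESeq2. At an unadjusted p under 0.05, 5 (4.13%) were higher and 0 lower, beside 1.56% and 1.15% of all genes. For 109 of the 121 the 95% interval lay within a 2-fold change in either direction, so larger differences are outside the interval for these and not for the other 12. The list's median was -0.04 in pair 1, 0.19 in pair 2, 0.13 in pair 3, 0.06 in pair 4 and -0.03 in pair 5.

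The synaptic genes with the smallest p included receptors, a vesicle sensor and an adhesion gene. The fast calcium sensor gene Syt2 was at 73.1, 61.9, 72.3, 8.06 and 49.3 CPM in the active and at 45.5, 42.1, 34.8, 3.67 and 44.3 CPM in the dead rescue. It was higher with the active domain in each pair (0.71 ± 0.24, edgeR unadjusted p = 0.00926, adjusted p = 1.00). Within numbers 1 to 3 the Syt2 difference was 0.75 (adjusted p = 0.0262) and within numbers 4 and 5 it was 0.63 (adjusted p = 1.00). The gene overlaps Ppp1r12b on the other strand. Between shKdm6b and control Syt2 fell by 1.26 on the log2 scale (edgeR adjusted p = 0.00659).

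Grin2c, the NMDA receptor subunit that mature granule neurons take up, was at 61.4, 54.5, 49.9, 4.74 and 50.1 CPM against 33.6, 27.1, 16.2, 8.54 and 51.6 CPM. It was higher with the active domain in numbers 1 to 3 and lower in numbers 4 and 5 (0.65 ± 0.28, edgeR unadjusted p = 0.0300, adjusted p = 1.00). Within numbers 1 to 3 the difference was 1.15 (adjusted p = 0.00803) and within numbers 4 and 5 it was -0.38 (adjusted p = 1.00). Between shKdm6b and control Grin2c fell by 1.47 (edgeR adjusted p = 0.00543). Whether the difference depends on the number was not tested.

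The kainate receptor gene Grik3 was at 81.7, 76.1, 40.4, 83.8 and 24.8 CPM against 58.2, 48.0, 31.2, 51.6 and 20 CPM, higher in each pair (0.53 ± 0.17). The synaptic adhesion gene Lrrtm1, which lies within Ctnna2, had an estimate of 0.53 ± 0.22 and was higher in 4 of 5 pairs.

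Genes that changed with the knockdown gave the second view of the same question. Of 263 genes called higher and 369 called lower in shKdm6b than in control, edgeR called 0 between the rescues, and DESeq2 called 0. Their medians between the rescues were 0.02 and 0.00, and for 252 and 350 of them the 95% interval lay within a 2-fold change. Across all 632 genes the knockdown change and the active minus dead difference had a Pearson r of 0.0086, so the set as a whole showed no reversal. Of the 263, 158 had positive estimates, and 23 were higher and 7 lower in all 5 pairs. Of the 369, 188 had positive estimates, and 14 were higher and 10 lower in all 5 pairs. Over all genes 54.5% had positive estimates, beside 60.1% of the 263 and 50.9% of the 369. In all 5 pairs 3.49% of all genes were higher and 2.00% lower. Among the 263, the 23 went the same way as the knockdown and the 7 against it. Among the 369, the 14 went against the knockdown and the 10 with it. No test was made of these counts. At an unadjusted p under 0.05 there were 37 of these 632 genes. In 27 of the 37 the active rescue differed from the dead rescue in the direction opposite to the knockdown, and in 10 in the same direction. Of the genes called lower in shKdm6b, 14 (3.79%) were higher and 3 (0.813%) lower with the active domain. Of those called higher, 13 (4.94%) were lower and 7 (2.66%) higher. These shares are read beside 1.56% higher and 1.15% lower over all genes, and no test was made of them.

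The 14 included Syt2, Grin2c, Igfbp5, Kndc1, the sialyltransferase gene St8sia5 (0.65 ± 0.20) and the phosphodiesterase gene Pde2a (0.38 ± 0.12). The insulin-like growth factor binding protein gene Igfbp5 was at 187, 134, 214, 246 and 366 CPM in the active and 153, 93.6, 153, 161 and 272 CPM in the dead rescue. Each active library was the higher of its pair (0.47 ± 0.12), and shKdm6b was below control by 0.63 on the log2 scale (edgeR adjusted p = 0.00637). For St8sia5 the difference was 0.90 within numbers 1 to 3 (adjusted p = 0.0232) and 0.14 within numbers 4 and 5 (adjusted p = 1.00). The 13 included the 6 interferon-stimulated genes above with Ifi47 and Tgtp2.

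Among those that moved with the knockdown rather than against it was Islr2, an adhesion protein gene of developing axons. It rose by 1.72 in shKdm6b (edgeR adjusted p = 0.00179) and was at 107, 56.3, 36.4, 69.0 and 59.2 CPM in the active against 40.3, 25.6, 12, 89.7 and 36.8 CPM in the dead rescue. It was higher with the active domain in every number except 4 (0.93 ± 0.27, edgeR unadjusted p = 0.00326, adjusted p = 0.993). Within numbers 1 to 3 the Islr2 difference was 1.37 (adjusted p = 0.00803) and within numbers 4 and 5 it was 0.09 (adjusted p = 1.00). Camk2a, which rose by 2.25 in shKdm6b, had 14.3 ± 3.03 against 13.5 ± 4.75 CPM between the rescues (0.12 ± 0.20), a value chosen for display after it was seen.

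A fit of the libraries numbered 1 to 3 alone called 9 genes (0.0589%), all higher with the active domain: Kcnip1, Cdkn2a, Grin2c, Islr2, St8sia5, Syt2, Cacna2d2, the ankyrin gene Ank1 and the calretinin gene Calb2. A fit of numbers 4 and 5 alone called 0 genes, with 184 at an unadjusted p under 0.05, from 2 pairs, and DESeq2 was not run on these subsets. Other named genes did not pass in numbers 1 to 3. They included Epas1 (0.39, edgeR adjusted p = 0.399), Oas2 (-0.67, 0.266), Irf7 (-0.65, 0.778) and Grik3 (0.50, 0.162). In numbers 4 and 5 their differences were 0.41, -0.45, -1.05 and 0.53. A difference between the sets of numbers was not tested.

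Cell cycle and DNA replication genes mark dividing progenitors or other dividing cells that survive AraC. Their fitted estimates were mostly lower, while their medians by pair had either sign. Of 37, 34 had lower estimates with the active domain (median -0.18), 5 of the 37 (13.5%) at an unadjusted p under 0.05 beside 1.15% of all genes, and 0 were called by edgeR or DESeq2. The median was -0.09, -0.64 and -0.58 in pairs 1 to 3 and 0.22 and 0.09 in pairs 4 and 5. Fits of numbers 1 to 3 and of 4 and 5 gave -0.45 and 0.13. Whether the difference depends on the number was not tested. E2f1, a transcription factor of S-phase entry, had an estimate of -0.29 ± 0.11, and the replicative helicase genes Mcm7 (-0.24 ± 0.09) and Mcm6 (-0.32 ± 0.13) had like values. Mcm7 overlaps Ap4m1 and Cops6.

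The lists given next had medians from -0.07 to 0.12. Late granule neuron maturation genes had 15 positive and 17 negative estimates (median 0.00) and early granule neuron and progenitor genes 17 and 13 (median 0.02). Activity-regulated genes had a median of 0.02, and their member Nr4a1, an immediate early gene, an estimate of -0.43 ± 0.19. Axon guidance and adhesion genes had 52 positive of 60 (median 0.12), among them Sema3c (0.44), and other JmjC demethylases 16 of 16 (median 0.10). Pair 4 weighed most in both, with medians of 0.42 and 0.36, while in pair 1 they were -0.08 and -0.06. All 46 cytosolic ribosomal protein genes had negative estimates of small size (median -0.07), with 1 at an unadjusted p under 0.05. Their medians by pair were 0.14, -0.21, -0.01, -0.44 and 0.05, so pair 4 weighed most. Of 45 oxidative phosphorylation genes 43 were negative (median -0.07), with medians by pair of 0.09, -0.09, 0.06, -0.52 and -0.04, so pair 4 again weighed most. Neither tool called a member of these lists.

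**Figure D5:**
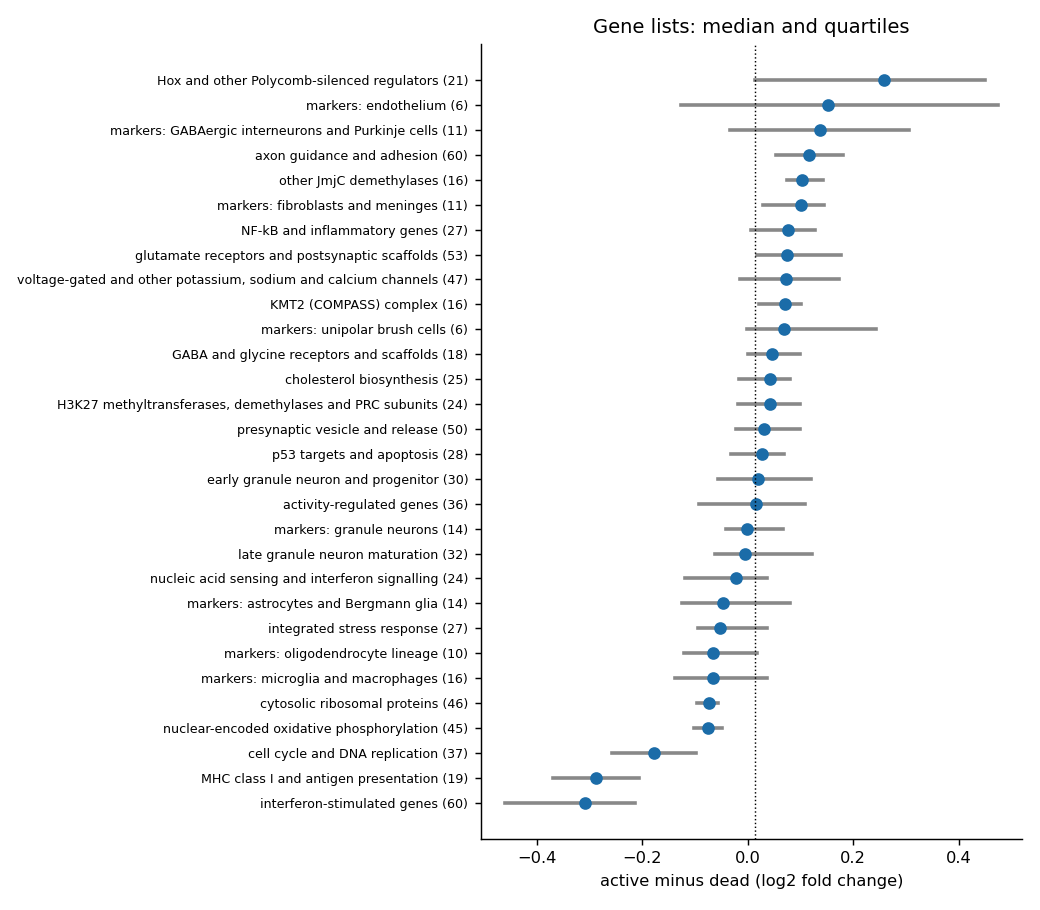
Median (points) and quartiles (bars) of the difference between active and dead rescue (log2 fold change) over the tested members of each of 30 gene lists, with the number of members in parentheses. The dotted line is the median of all genes, 0.01. The interferon and MHC class I lists lie lowest, at -0.31 and -0.29, and the Polycomb-silenced list highest, at 0.26.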

How the data were processed

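RNA was extracted with the RNAqueous Micro Kit and sequenced, per the labels' protocols. The authors deposited 1 table of estimated counts per gene, whose name gives salmon. Per the submitters' processing notes the genome was mm10. Version, annotation and strand setting: not given in the sources used here.

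Counts were rounded. Genes passing filterByExpr (15284) were tested with edgeR 4.0.16 (R 4.3.3; limma 3.58.1): TMM scaling, robust quasi-likelihood test, all 20 libraries, the replicate number as an additive block, Benjamini-Hochberg adjustment over all genes, threshold 0.05. Libraries were paired by the number in their names, and the block was part of the design. Of 10 rescue libraries 10 correlated best with their own number (same-number median r 0.620, other numbers -0.218). The labels do not say what the numbers mark, so the grounds for treating them as pairs rest on this check. No 2 rescue libraries of a group were alike (chi-square per degree of freedom 29.1 to 225). CPM used TMM-scaled sizes and log2 CPM a prior count of 1. Standard errors are the fold change divided by the square root of the F statistic.

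Named genes were the 12 largest differences per direction among called genes of at least 5 CPM with all 5 pairs alike, filled by smallest unadjusted p, and up to 3 members of each of 30 lists (10 for interferon). Listed members with an unadjusted p of 0.05 or more are mostly given as counts. B2m, Islr2, St8sia5, Pde2a, Ank1, Calb2, Camk2a and Sema3c were named after their values were seen. Lists and members were chosen with earlier results of these data known. The scripts were tested on simulated data. Alternatives were DESeq2 1.42.0, RLE scaling, other filters, other sets of libraries and no replicate block.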

Additional observations from a re-analysis of the deposited data

How the results depend on the processing

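The edgeR fit called 1 gene. Without the replicate block it called 0 (37 at an unadjusted p under 0.05, beside 415 with it). It also called 0 in the 10 rescue libraries alone (567), without number 4 (714), without number 5 (341) and in numbers 4 and 5 (184). Among genes of at least 5 CPM it called 0 (295), but this filter removed Kcnip1, so that fit could not call the gene. In numbers 1 to 3 edgeR called 9 genes, all higher. DESeq2 called 3 genes, 2 higher and 1 lower. Leaving out 1 rescue library gave 0 to 2 called genes, all of them higher. Kcnip1 kept its direction, with log2 differences from 1.13 to 1.87, and was no longer past the threshold without the replicate block (adjusted p = 1.00), in the rescue libraries alone (0.188), without number 4 (0.067) or 5 (0.109) and in numbers 4 and 5 (1.00). Kdm6a, 0.09 in the paired fit, was -0.0533 without number 4, -0.0715 in numbers 1 to 3, and from -0.20 to 0.21 with 1 rescue library left out. In numbers 4 and 5 Grin2c was -0.38, Nr4a1 0.11 and Mcm6 0.0115. Kdm6b stayed between 0.19 and 0.43 and never passed the threshold. Of the values recomputed over 20 alternatives, 1235 kept their direction and their side of the threshold or moved by less than their spread. A further 35 moved by more, 13 lost and 6 gained a call, and 7 reversed. Of the 54 named genes among these values, edgeR had called only Kcnip1. For the others a kept side of the threshold meant staying uncalled, so that count says little about how firm their differences are. For genes with few counts, such as Kcnip1 in number 5, depth limits the precision. The cause of these changes was not tested.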
